A study of Mus musculus with 16 samples.

Results

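The 3 enzyme families of conjugation were followed in liver of mouse offspring: the UDP-glucuronosyltransferases (Ugt), the sulfotransferases (Sult) and the soluble glutathione S-transferases (Gst). Members were all genes on the array whose name began with Ugt1a, 2a, 2b or 3a, with Sult1 to Sult6, or with Gst followed by a class letter and a number. This gave 43 genes of the 27962 named on the array, of which 19 were Gst, 11 Sult and 13 Ugt. Each gene was read by its brightest probe in liver. Genes whose brightest probe exceeded background in liver on 3 or more arrays were tested, which left 41 members of 18849 genes. Sult1e1 (above background on 2 arrays) and Ugt1a9 (on 1 array) were not tested.

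Conjugation, or phase II metabolism, attaches a polar group to a drug, hormone, bile pigment or reactive compound so that it can be excreted. Ugt enzymes sit in the endoplasmic reticulum and transfer a sugar, mostly glucuronic acid, from its UDP form. Sult enzymes are cytosolic and transfer sulfate from the donor PAPS, while Gst enzymes add the tripeptide glutathione to electrophiles. In liver these families clear bilirubin, steroids, thyroid hormone and xenobiotics, and many members change with development, sex and exposure to chemicals.

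The series asked whether breathing UV-Titan, a titanium dioxide of nano size with a coated surface, during pregnancy changed liver gene expression in the young. The dams were time-mated C57BL/6BomTac mice held in whole-body chambers for 1 h per day on gestation days 8 to 18, in filtered air or in about 42 mg/m3 UV-Titan. The offspring themselves had no treatment. There were 3 female controls, 5 female UV-Titan, 4 male controls and 4 male UV-Titan animals, each with 1 array. Livers were collected on postnatal day 2 or on days 23 to 24, and the labels give neither the age nor the litter of an animal, so shared litters and mixed ages cannot be told apart from the groups. P-values therefore measure the spread between these arrays. Whole liver was used, so fewer cells of a type and less RNA per cell cannot be told apart.

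Each array carried liver RNA in 1 channel and a universal mouse reference RNA in the other, and the main value is the log2 ratio of liver over reference. The label fields and the labelling protocol name opposite dyes for liver. The red channel was taken as liver, because Ddx3y, a Y-linked gene, had a mean log2 ratio of 1.82 in males and -1.93 in females, and the hepatocyte genes Ttr and Apoa1 had ratios of 4.42 to 5.53 and 4.49 to 5.74. Afp, the fetal albumin-like protein, had ratios of 6.51 to 8.99. The share of spots well above background was 57.7% to 67.1% in red and 62.7% to 69.8% in green, and the number of arrays limits the precision. The mean ratio of exocrine pancreas markers was 3.49 and 2.78 on male controls 31 and 33 and at most 1.48 elsewhere, and that of skeletal muscle markers was 1.70 on male UV-Titan 5 and at most -0.35 elsewhere. The comparisons were also computed without these 3 arrays.

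All 19 Gst, 8 of 11 Sult and 12 of 13 Ugt members were above background in liver on all 16 arrays. A ratio says how far a transcript is enriched in liver over the reference pool, not how abundant it is against another gene. All 12 tested Ugt members had a mean ratio above 0, with a median of 2.85 over the members. Of the Sult members 8 of 10 lay above 0 (median 2.40), and of the Gst members 13 of 19 (median 1.28). The plot of ratios by gene shows that the Sult family held both the highest ratios and members near 0.

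**Figure D1:**
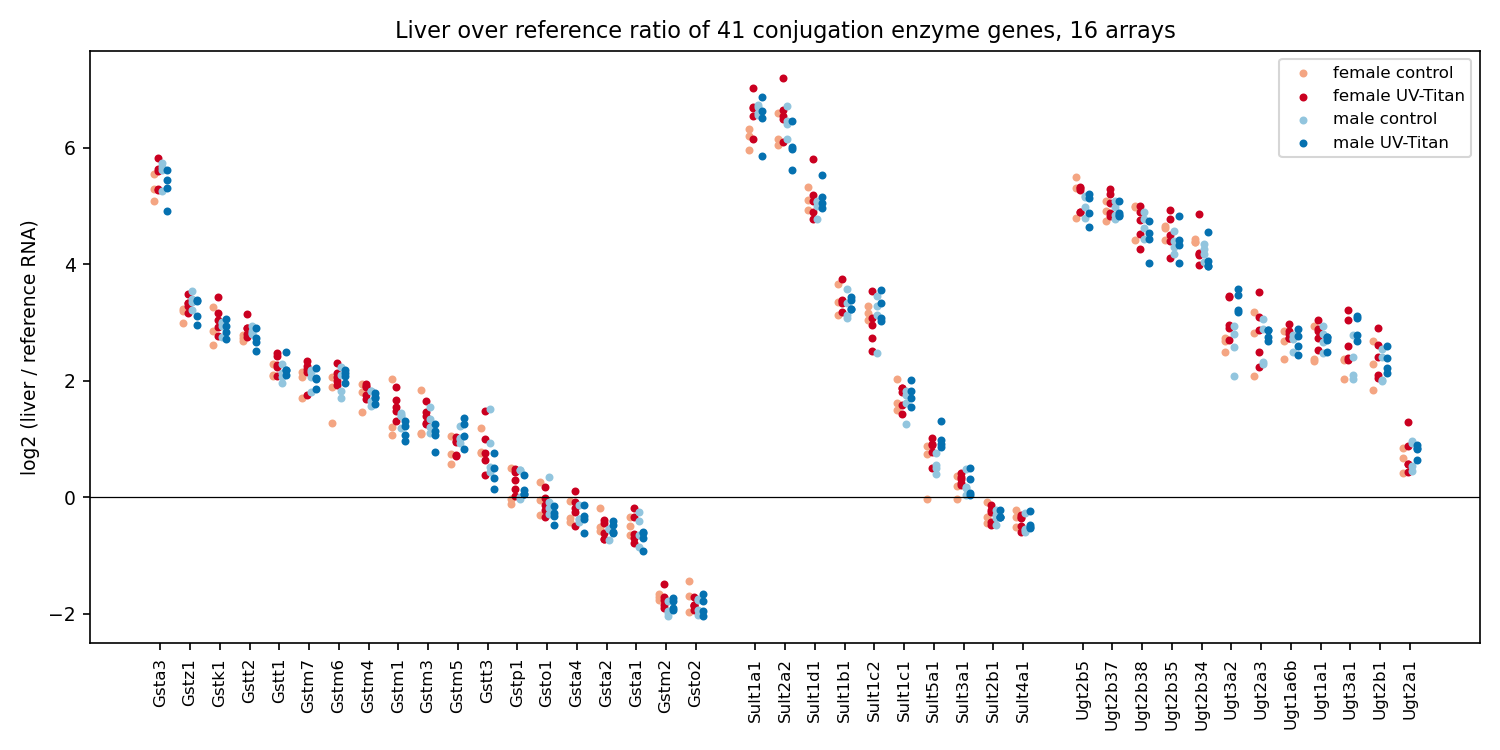
Log2 ratio of liver over reference RNA (vertical axis) for the 41 tested members, ordered within Gst, Sult and Ugt by their mean; each point is 1 array, coloured by group. Sult1a1 and Sult2a2 lie highest, Gstm2 and Gsto2 lowest.

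Among the sulfotransferases, Sult1a1, which sulfates phenols, had a mean log2 ratio of 6.50 ± 0.32 (SD, n = 16). Sult2a2, a hydroxysteroid sulfotransferase, followed at 6.35 ± 0.38, and the spread of these 2 genes overlapped. The second Sult2a2 probe was above background on 0 arrays in either channel and had a ratio of 0.004. Sult1d1, which acts on catecholamines, had 5.11 ± 0.27, but on no array did its reference signal stand well above background. The same holds for Ugt2b1 and Ugt2a1. For these genes the ratio depends on the background correction and reads as a lower bound; with Agilent's processed signals the Sult1d1 ratio was 8.82 to 9.78 by group. Sult3a1 had a liver signal above background on 7 arrays and a reference signal on 0, so its ratio of 0.24 bounds nothing. At the other end were Sult2b1, which sulfates cholesterol, at -0.31 ± 0.12, and Sult4a1, a brain form, at -0.43 ± 0.13. The liver signal of Sult2b1 was above background on 7 of 16 arrays and its reference signal on 16, so its ratio is in part an upper bound. The second Sult4a1 probe was above background on 0 arrays in either channel.

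Ugt2b5, Ugt2b37, Ugt2b38, Ugt2b35 and Ugt2b34, which glucuronidate steroids and other substrates, had mean log2 ratios of 5.08, 4.95, 4.64, 4.46 and 4.24. The SDs over 16 arrays ran from 0.16 to 0.29. The second Ugt2b37 probe gave 3.48, with a reference signal above background on 4 arrays. The reference signal of Ugt2b35 was above background on 1 array, that of Ugt2b38 on 11 and that of Ugt2b5 on 14, so these ratios are in part lower bounds and the order is not settled. Ugt3a2, Ugt2a3, Ugt1a6b, Ugt1a1 and Ugt3a1 lay at 2.95, 2.75, 2.71, 2.70 and 2.58. Of these, Ugt2a3 had a reference signal above background on 1 array, and its ratio is a lower bound. Ugt1a1, the bilirubin-conjugating enzyme, had a range of 2.34 to 3.04. Ugt2a1, known from nasal epithelium, was lowest among the 12 tested Ugt members at 0.73 ± 0.24, with no reference signal above background. The brightest Ugt1a6b probe lies at chr1:88122519-88122578 (build mm7), downstream of the Ugt1a1 probe at position 88115927. Ugt1a transcripts share their 3′ exons, so this probe does not separate Ugt1a6b from other Ugt1a forms; the second Ugt1a6b probe had a ratio of 0.35.

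In the Gst family the alpha-class Gsta3 stood apart at 5.44 ± 0.25, and its second probe gave 4.04. Gstz1, which acts in tyrosine breakdown, had 3.27 ± 0.16, Gstk1 2.95 ± 0.21 and Gstt2 2.81 ± 0.14. Gstp1, the pi-class enzyme, was near the reference level at 0.20 ± 0.22, and Gsto1, an omega-class enzyme that reduces dehydroascorbate, at -0.13 ± 0.23. The sign of Gsto1 changed in 2 of its 4 group values with median centring, and all 4 group values of Gstp1 turned negative in the authors' deposited table. Gsta4, which conjugates the lipid peroxidation product hydroxynonenal, had -0.29 ± 0.19. The lowest members were Gstm2 at -1.81 ± 0.14 and Gsto2 at -1.83 ± 0.16. The second Gsto2 probe, above background in liver on 0 arrays, gave -0.19.

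Gsta1 and Gsta2 had almost the same ratio, -0.57 ± 0.21 and -0.54 ± 0.14. The 60-base probes of these alpha-class enzymes are shown because they read overlapping sequence, in capitals:
Gsta1: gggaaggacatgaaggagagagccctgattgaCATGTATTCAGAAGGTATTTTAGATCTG
Gsta2: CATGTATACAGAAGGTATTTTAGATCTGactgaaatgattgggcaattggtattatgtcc
The last 28 bases of the Gsta1 probe and the first 28 of the Gsta2 probe match at 27 positions. The exception is T40A, counted from 1 at the 5′ end of the Gsta1 probe. Among the 903 pairs of brightest member probes this was the only pair with an identical run of at least 14 bases. Levels of Gsta1 and Gsta2 are therefore uncertain as separate values. Probes were compared with each other and not with transcripts, so whether the other probes each read only 1 gene was not tested. The Gsta2 probe lies at chr9:78408171-78408230 on the minus strand (mm7).

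No member passed an adjusted p of 0.05 in limma for UV-Titan against control. This held in females, in males and averaged over sexes, by the ratio and by the liver channel alone. The background was the same: 0% of 18849 genes passed in each of these comparisons and measures. Averaged over sexes, 27 of 41 members had a higher ratio in UV-Titan, with a median log2 difference of 0.04, against 60.6% of all genes and a median of 0.02. In the liver channel alone it was 16 of 41, with a median of -0.02, against 49.8% of all genes and a median of -0.0003. At an unadjusted p under 0.05, 4 members were higher and 0 lower by the ratio, against 1049 and 288 of all genes. In either direction this was 9.76% of members and 7.09% of all genes.

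The plot of exposure differences shows each member with its interval. The 95% intervals of the averaged difference had a median half-width of 0.22, and all 41 lay within a log2 difference of 1 on either side of 0. In males 39 of 41 intervals did so, the exceptions being Ugt3a1 and Ugt3a2. Family medians of the averaged difference were 0.09 for Ugt, 0.05 for Sult and 0.01 for Gst; with the liver channel alone the Gst median was -0.06 and the Ugt median was -0.00015, so the sign depended on the measure. In females the medians were 0.14, 0.03 and 0.11 by the ratio and -0.04, 0.05 and 0.01 in the liver channel. With 1 array left out, the lowest female medians by the ratio were -0.03, -0.01 and 0.04. In males they were 0.02, 0.05 and -0.04 by the ratio and 0.04, 0.06 and -0.12 in the liver channel. Beside this, the mean ratio of 7 hepatocyte markers, all above background on every array, was 5.21 to 5.47 in female controls and 5.56 to 6.22 in female UV-Titan. Over 6 megakaryocyte and platelet markers it was 1.99 to 2.20 and 2.58 to 2.78. In the liver channel alone the median female difference was 0.06 for the hepatocyte markers (5 of 7 higher), against 0.49 by the ratio. For the platelet markers it was 0.53, against 0.57. By the ratio 7 of 7 granulocyte, 5 of 5 fetal liver, 7 of 7 macrophage and 5 of 5 endothelial markers were also higher. Of erythroid markers 5 of 7 and of stellate markers 4 of 6 were higher. In the liver channel alone 7 of 7 granulocyte and 5 of 5 endothelial markers were higher. It was 2 of 5 for fetal liver, 3 of 7 for macrophage, 2 of 7 for erythroid and 3 of 6 for stellate markers. The part of any of these lists in the female differences was not tested.

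**Figure D2:**
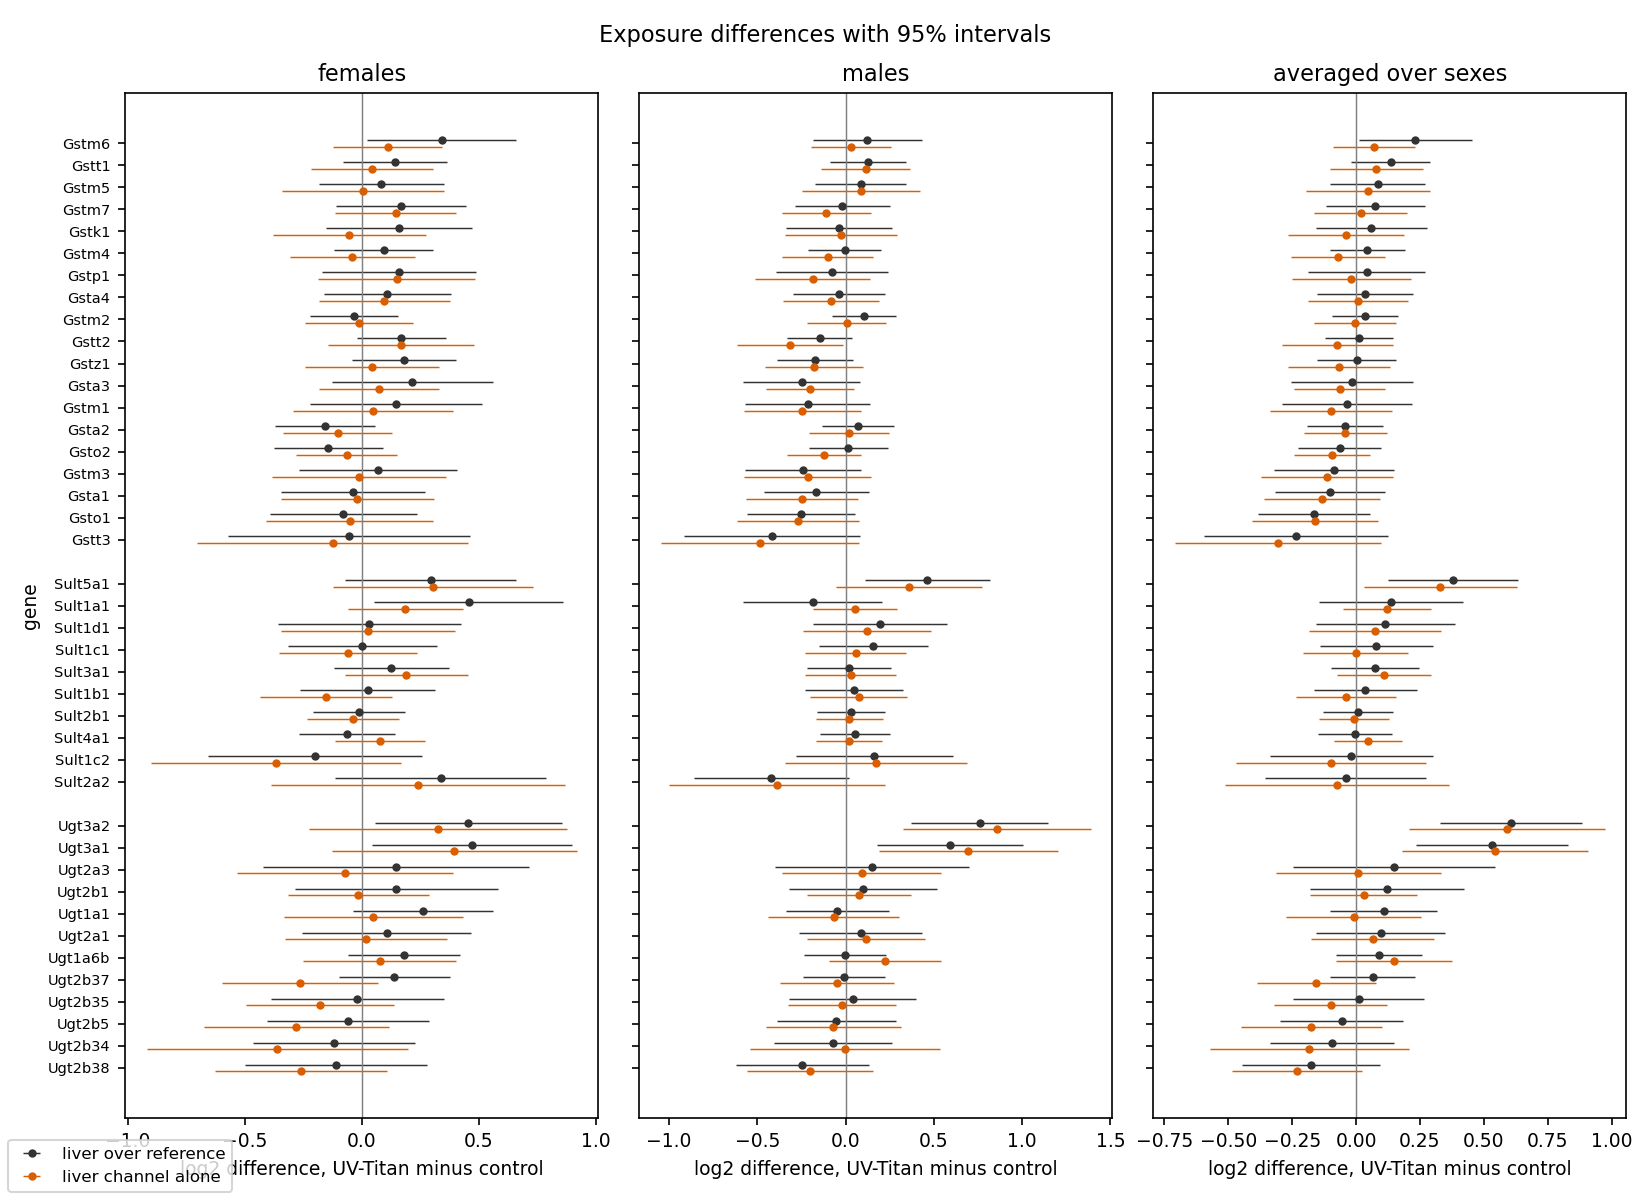
Log2 difference, UV-Titan minus control (horizontal axes), for the 41 members in females, males and averaged over sexes; points are limma estimates and bars their 95% intervals, black for liver over reference and orange for the liver channel alone. Ugt3a2, Ugt3a1 and Sult5a1 lie to the right of 0 in all 3 panels.

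The members farthest from 0 were the Ugt3a pair. Human enzymes of the UGT3A group use sugars other than glucuronic acid, and the 2 mouse genes lie close together on chromosome 15. Ugt3a2 had log2 ratios of 2.74, 2.48 and 2.68 in female controls, and of 3.45, 3.44, 2.70, 2.91 and 2.95 in female UV-Titan. In males the controls had 2.57, 2.09, 2.81 and 2.94, and the UV-Titan animals 3.47, 3.58, 3.22 and 3.18. Every UV-Titan male lay above every control male, while in females 1 UV-Titan animal fell among the controls.

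Averaged over sexes the Ugt3a2 difference was 0.61 ± 0.13 (SE), a 1.52-fold higher ratio (95% interval 1.26 to 1.85). Its unadjusted p was 0.000281, and its adjusted p in limma was 0.189. The difference was 0.45 ± 0.19 in females (adjusted p 0.688 in limma) and 0.76 ± 0.18 in males (adjusted p 0.950 in limma). By the liver channel alone it was 0.59 ± 0.18, and in the reference channel alone 0.05 ± 0.11. The averaged reference difference was smaller than its SE. On single arrays male UV-Titan 17 had the highest Ugt3a2 signal in both channels, 10.81 in liver and 6.91 in the reference. In the liver channel the smallest adjusted p of any member for this comparison was 0.9998 in limma. A second Ugt3a2 probe was above background on 2 arrays and gave no usable value.

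Ugt3a1 showed the same order with more overlap. Its log2 ratios were 2.37, 2.02 and 2.35 in female controls and 3.04, 3.21, 2.36, 2.38 and 2.59 in female UV-Titan. Male controls had 2.09, 2.02, 2.78 and 2.40, and male UV-Titan animals 3.08, 3.11, 2.79 and 2.69. The female groups overlapped at 1 UV-Titan animal, and in males control 41 lay among the UV-Titan values. The averaged difference was 0.53 ± 0.14, a 1.45-fold higher ratio (95% interval 1.18 to 1.78), with an adjusted p of 0.329 in limma. By the liver channel alone it was 0.54 ± 0.17 and in the reference channel 0.09 ± 0.06. The Ugt3a1 reference signal was above background on 11 of 16 arrays.

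**Figure D3:**
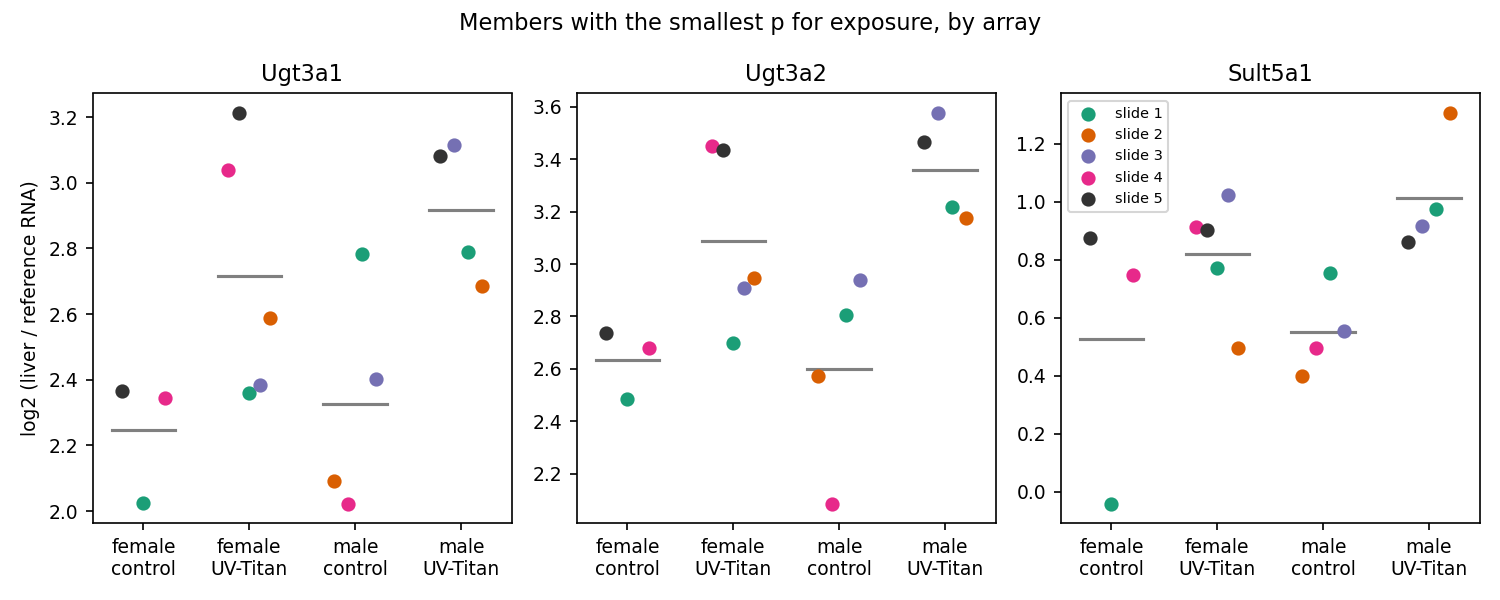
Log2 ratio of liver over reference RNA (vertical axes) of Ugt3a1, Ugt3a2 and Sult5a1 on each array by group; colours mark the slide and grey bars the group mean. For Ugt3a2 and Sult5a1 the 4 male UV-Titan arrays all lie above the 4 male controls, while the female groups overlap.

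The brightest probes of the pair lie at chr15:9389325-9389384 for Ugt3a1 and chr15:9438030-9438089 for Ugt3a2 (mm7, plus strand), 48705 bases apart. The probes share no identical run longer than 5 bases. Neither was compared with the transcript of the other gene, so whether each reads only its own gene was not tested. Within a slide and sex the arrays can be compared without the slide, which gives 6 comparisons. The Ugt3a2 difference was positive in all 6, at 0.22, 0.77 and 0.70 in females and 0.41, 0.60 and 0.64 in males. The Ugt3a1 difference was also positive in all 6, from 0.01 to 0.85. Sult5a1 was the only other member with this pattern, and 4.16% of all genes had it, against 3 of 41 members; this count was chosen after the values were seen. In the liver channel alone Ugt3a2 and Sult1a1 were positive in 6 of 6, against 2.09% of all genes, and Ugt3a1 and Sult5a1 in 5 of 6. Ugt2b37 was negative in 6 of 6 there, from -0.50 to -0.01, as were 1.6% of all genes. By the ratio Ugt2b37 was positive in 3 of 6, from -0.23 to 0.46. Its reference signal was also lower in UV-Titan females, by -0.35.

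The 250 bases before the transcript start of Ugt3a1 are shown, as this gene and Ugt3a2 had the largest averaged differences; the region is chr15:9279579-9279828, plus strand, RefSeq on GRCm38.p6. Capitals mark a match to GTTAAT, the core of the element of the liver factor HNF1, on the opposite strand:
Ugt3a1: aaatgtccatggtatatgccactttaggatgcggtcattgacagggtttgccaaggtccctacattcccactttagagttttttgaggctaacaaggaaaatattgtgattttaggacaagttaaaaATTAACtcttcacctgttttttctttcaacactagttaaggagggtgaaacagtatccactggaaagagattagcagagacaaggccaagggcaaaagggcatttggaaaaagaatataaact
The match begins at position -123. Promoter windows were found for 37 of the 43 members, 47 windows in all, and Ugt3a2 was not among them. GTTAAT stood on either strand in 7 of these 47 windows (14.9%) and in 6.43% of all 32851 windows of the same length. The members with it were Gsta3, Sult1a1, Sult1d1, Ugt1a1, Ugt1a9, Ugt2a3 and Ugt3a1. These are letter matches, not measured binding.

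Sult5a1 was the third member by p. Its log2 ratios were 0.87, -0.04 and 0.75 in female controls and 0.91, 0.90, 0.77, 1.02 and 0.50 in female UV-Titan. Male controls had 0.40, 0.50, 0.75 and 0.55, and UV-Titan males 0.86, 0.92, 0.97 and 1.30. The male groups did not overlap, while in females control 35 was far below the other 2 controls. The averaged difference was 0.38 ± 0.12, a 1.30-fold higher ratio (95% interval 1.09 to 1.55), with an adjusted p of 0.496 in limma. In females it was 0.29 with all arrays, 0.01 without control 35 and 0.47 without control 25.

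Ugt3a2 and Sult5a1 were the only members whose male groups did not overlap, 2 of 41, and 1.9% of all genes had every UV-Titan male above every control male. In females 0 of 41 members did so, against 3.21% of all genes. With both sexes pooled it was 0 of 41, against 0.0478%. Without the 3 arrays that carried pancreas or muscle transcripts, the averaged differences of Ugt3a2, Ugt3a1 and Sult5a1 were 0.50, 0.44 and 0.28.

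The other Ugt members stayed within 0.18 of 0 in the averaged comparison. Ugt2b38 had -0.18 ± 0.13 and Ugt1a1 0.11 ± 0.10 (adjusted p 0.814 and 0.859 in limma). In females Ugt1a1 had ratios of 2.34, 2.37 and 2.93 in controls and 2.74, 2.89, 2.52, 2.85 and 3.04 in UV-Titan, a difference of 0.26 ± 0.14 by the ratio but 0.05 ± 0.18 in the liver channel. The groups overlapped at the third control. The 2 probes of Ugt2b37 had opposite signs in both sexes: 0.14 and -0.01 in females and males for the brightest, -0.25 and 0.21 for the other.

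Ugt2a3 had the widest interval of the averaged difference among the members. Its ratios were 2.08, 3.17 and 2.82 in female controls and 3.09, 3.52, 2.23, 2.49 and 2.86 in female UV-Titan, and 2.29, 3.05, 2.32 and 2.89 in male controls against 2.86, 2.87, 2.75 and 2.68 in male UV-Titan. The UV-Titan males sat inside the range of their controls. Its averaged difference was 0.15 ± 0.19. Ugt2b1, a steroid- and drug-conjugating form, ran from 1.85 to 2.67 in female controls and from 2.04 to 2.90 in female UV-Titan. Its averaged difference was 0.12 ± 0.14, and the groups overlapped in both sexes. Ugt2b34 had 4.43, 4.37 and 4.38 in female controls, and 4 of the 5 UV-Titan females lay below all of them. UV-Titan female 16 lay above them, and the female difference was -0.12 ± 0.16.

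Among the other Sult members only Sult1a1 reached an unadjusted p under 0.05 for exposure, in females. Its ratios were 5.96, 6.32 and 6.19 in controls and 6.69, 6.15, 6.67, 6.54 and 7.02 in UV-Titan, with 1 UV-Titan animal inside the control range. The female difference was 0.46 ± 0.19 (adjusted p 0.688 in limma). Liver signal alone gave 0.19 ± 0.12 and reference signal alone -0.26 ± 0.14; the reference holds the same RNA on every array. In males the same gene had 6.69, 6.73, 6.60 and 6.55 in controls and 5.85, 6.62, 6.50 and 6.86 in UV-Titan, so UV-Titan males lay on both sides of the controls.

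For 5 other sulfotransferases the exposure groups overlapped in both sexes. Sult1b1, which sulfates thyroid hormone, had 3.12, 3.65 and 3.35 in female controls and 3.38, 3.74, 3.33, 3.18 and 3.37 in female UV-Titan, with an averaged difference of 0.04 ± 0.09. Its reference signal was above background on 4 of 16 arrays. The second Sult1b1 probe had a mean ratio of 1.32, against 3.34 for the brightest. Sult1c1 had 0.08 ± 0.10 and Sult1c2 -0.02 ± 0.15. Sult1c2 was among the more variable members, with male controls from 2.48 to 3.45. Sult1d1 had 0.11 ± 0.13 and Sult3a1 0.07 ± 0.08; every Sult3a1 array lay between -0.03 and 0.50. The liver signal of Sult3a1 was above background on 7 of 16 arrays, and with Agilent's processed signals its averaged difference was 0.75 and its female difference 0.98.

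For Gst, no member reached an unadjusted p under 0.05 in males by the ratio. In females Gstm6, a mu-class enzyme, had 1.28, 2.06 and 1.89 in controls and 2.12, 2.30, 1.99, 1.93 and 2.07 in UV-Titan. The difference was 0.34 ± 0.15 (adjusted p 0.708 in limma), and it was 0.11 without control 25, the lowest array. Its liver channel gave 0.11 ± 0.11 and its reference channel -0.14 ± 0.07. Gstt3, a theta-class enzyme, had the lowest averaged difference of the family, -0.24 ± 0.17, and its male controls ranged from 0.43 to 1.51. Without male control 33 the male difference of Gstt3 went from -0.42 to -0.20. Gstp1 had 0.04 ± 0.11, with similar values from both of its probes (0.04 and 0.04), and Gsta3 had -0.02 ± 0.11. The second Gsta3 probe gave 0.11, with 0.38 in females and -0.16 in males.

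Alpha and mu enzymes overlapped between exposure groups in both sexes. Gsta3 had 5.09, 5.54 and 5.29 in female controls and 5.59, 5.27, 5.63, 5.30 and 5.82 in female UV-Titan. In males it had 5.73, 5.67, 5.25 and 5.61 in controls and 4.91, 5.61, 5.31 and 5.44 in UV-Titan. The female difference was 0.22 ± 0.16 and the male one -0.25 ± 0.16. Gsta1, Gsta2 and Gsta4 had averaged differences of -0.10 ± 0.10, -0.04 ± 0.07 and 0.04 ± 0.09. Gstm1, the abundant mu form of liver, had 1.20, 2.03 and 1.07 in female controls, so 1 control lay above all 5 UV-Titan females. Its averaged difference was -0.03 ± 0.12, and that of Gstm3 was -0.09 ± 0.11. Female control 35 was also the highest female for Gstm3, at 1.83. Gstt1, a theta enzyme, had 0.14 ± 0.07 and Gsto1 -0.17 ± 0.10 (adjusted p 0.752 and 0.781 in limma).

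The female exposure difference was set against the male one in a test of the difference itself. No member passed in limma (0 of 41; 0% of all genes), by the ratio or by the liver channel. At an unadjusted p under 0.05 stood 4 of 41 members, against 809 of all genes (4.29%). They were Sult2a2 (0.76 ± 0.30), Sult1a1 (0.64 ± 0.27), Gstz1 (0.35 ± 0.15) and Gstt2 (0.32 ± 0.13), each higher in UV-Titan females and lower in UV-Titan males, with an adjusted p of 0.980 in limma. By the ratio 7 of 7 hepatocyte markers were higher in this contrast, with a median of 0.66 and 5 at an unadjusted p under 0.05; in the liver channel it was 4 of 7 and a median of 0.03. Their part in these differences was not tested. Sult2a2 had 6.04, 6.59 and 6.15 in female controls and 6.64, 6.49, 6.55, 6.09 and 7.20 in female UV-Titan. In males it had 6.15, 6.72, 6.41 and 6.45 in controls and 6.01, 5.61, 6.45 and 5.97 in UV-Titan, so both sexes overlapped. With the liver channel alone Gstt2 kept 0.48 ± 0.20 and Sult1a1 had 0.13 ± 0.16. Ugt3a2, Ugt3a1 and Sult5a1 did not pass this test either; the Ugt3a2 value was -0.30 ± 0.26.

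Sex differences of these families are known from adult mouse liver, where Sult2a and Sult3a1 forms are high in females and Gstp1 in males. In these offspring no member passed in limma for male against female, against 0.0477% of all genes by the ratio and 0.0371% by the liver channel alone. By the ratio 11 of 41 members were higher in males, against 48.5% of all genes; by the liver channel it was 8 of 41, against 47.3%. Erythroid markers were higher in males for 7 of 7 genes by both measures (medians 0.27 and 0.24), and granulocyte markers likewise (0.17 and 0.17). Hepatocyte markers were higher in males for 7 of 7 genes by the ratio (median 0.22) and 2 of 7 in the liver channel (-0.04). Megakaryocyte and platelet markers were higher for 6 of 6 genes by both measures. Macrophage and Kupffer markers were higher for 5 of 7 by the ratio and 0 of 7 in the liver channel. The part of any of these lists was not tested. The medians were -0.08 for Gst, -0.02 for Sult and -0.05 for Ugt, and with median centring they were 0.07, 0.05 and 0.05 while the median of all genes moved to 0.13. Gstp1 differed by -0.01 ± 0.11 and Sult3a1 by -0.02 ± 0.08. Sult2a2 had -0.20 ± 0.15 by the ratio and -0.44 ± 0.21 in the liver channel. In the reference channel, which holds the same RNA on every array, Sult2a2 also differed, by -0.21.

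**Figure D4:**
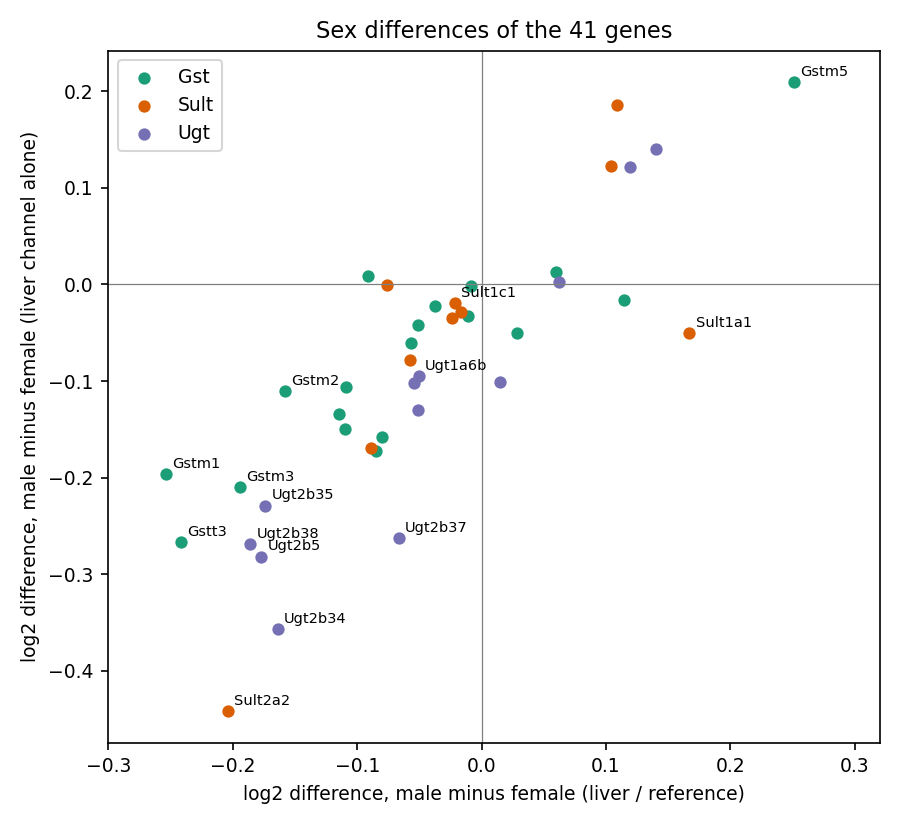
Log2 difference, male minus female, of the 41 members by the liver over reference ratio (horizontal axis) and by the liver channel alone (vertical axis), coloured by family. For 29 of 41 members both differences are below 0, with Sult2a2 lowest and Gstm5 highest in the liver channel.

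Mu-class genes stood at both ends by the ratio. Gstm5 had a lowest, median and highest log2 ratio of 0.57, 0.84 and 1.06 in the 8 females and 0.83, 1.03 and 1.36 in the 8 males. The male minus female difference was 0.25 ± 0.09, with overlapping sexes and an adjusted p of 0.977 in limma. Gstm2 had a lowest ratio of -1.91 and a median of -1.74 in females, and a lowest of -2.05, a median of -1.93 and a highest of -1.72 in males. The difference was -0.16 ± 0.06, and the sexes overlapped. Gstm1 and Gstm3 had -0.25 ± 0.12 and -0.19 ± 0.11. With median centring Gstm2 turned to 0.03, and Gstm5 was 0.45.

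In the liver channel alone, 5 members had an unadjusted p under 0.05 for sex, all lower in males, against 416 of all genes (2.21%), of which 230 were lower. Of the 5 members, 4 were Ugt: Ugt2b5, Ugt2b38, Ugt2b35 and Ugt2b37. The fifth was Sult2a2. In the reference channel, the same RNA on every array, 10 of 12 Ugt members were also lower in males. Their median there was -0.04 and the lowest was Ugt2b37 at -0.19, with 0 at an unadjusted p under 0.05 in limma. Of all genes 8654 of 18849 were lower in that channel. Ugt2b5 had log2 intensities of 11.65, 12.05 and 12.32 (lowest, median, highest) in females and 11.22, 11.75 and 12.18 in males, a difference of -0.28 ± 0.13. Ugt2b38 had 10.97, 11.43 and 11.72 in females and 10.61, 11.25 and 11.48 in males, a difference of -0.27 ± 0.12. The sexes overlapped for both genes, and the adjusted p was 1.000 in limma. By the ratio the differences were -0.18 ± 0.11 and -0.19 ± 0.13, and with median centring of the ratio -0.01 and -0.03.

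The regions before the starts of Ugt2b5 and Ugt2b38 are shown because their sequences are alike; Ugt2b37 and Ugt2a3 lie between the 2 genes on chromosome 5. Capitals mark AGGTCA, the half-site of nuclear receptors, which begins at position -22 and -25 (RefSeq, GRCm38.p6, minus strand, chr5:87140341-87140590 and chr5:87424204-87424453):
Ugt2b5: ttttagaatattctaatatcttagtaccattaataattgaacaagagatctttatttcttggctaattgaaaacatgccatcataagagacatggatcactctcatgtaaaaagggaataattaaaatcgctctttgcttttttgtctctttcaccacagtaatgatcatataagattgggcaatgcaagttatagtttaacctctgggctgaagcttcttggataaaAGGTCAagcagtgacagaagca
Ugt2b38: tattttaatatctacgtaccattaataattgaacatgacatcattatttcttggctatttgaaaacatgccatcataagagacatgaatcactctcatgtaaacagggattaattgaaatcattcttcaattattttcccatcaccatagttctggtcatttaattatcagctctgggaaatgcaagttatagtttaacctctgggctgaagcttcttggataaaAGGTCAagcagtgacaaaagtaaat
In a global alignment 214 of 260 columns (82.3%) were identical, with a shared run of 62 bases. AGGTCA was found on either strand in 8 of 47 member windows (17%) and in 14% of all windows. The other elements searched were TGACNNNGC, the antioxidant response core (6.38% of member windows, 10.2% of all), GCGTG, the dioxin response core (17% and 28.2%), and TTCNNNGAA, the STAT5 element (6.38% and 7.02%).

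Genes that serve conjugation were taken from lists chosen with earlier results known. None passed in limma for exposure averaged over sexes: 0 of 12 genes of cosubstrate synthesis, 0 of 17 of other conjugation, 0 of 6 of deconjugation and 0 of 14 regulators. The median log2 differences were 0.01, 0.11, 0.04 and 0.08, against 0.02 for all genes. In other conjugation 5 of 17 had an unadjusted p under 0.05 by the ratio and 2 of 17 in the liver channel, against 7.09% and 2.97% of all genes. Mgst2, a microsomal glutathione transferase, had 0.14 ± 0.04, and Ephx1, the microsomal epoxide hydrolase, -0.16 ± 0.05 (adjusted p of Ephx1 0.510 in limma). Among regulators Nr1i3, the receptor CAR, had 0.17 ± 0.06, Bcl6 0.12 ± 0.05 and Esr1, the estrogen receptor, 0.26 ± 0.10 (smallest adjusted p 0.538 in limma). Ahr, the dioxin receptor and the fourth regulator with an unadjusted p under 0.05, had -0.17 ± 0.07. Papss2, which makes PAPS, had 0.16 ± 0.13, and Arsb, a lysosomal sulfatase, 0.06 ± 0.05.

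The share of variance between slides and between groups was described, without a test. Over the 41 members, slide took a median of 32.2% of the variance of the ratio and group 17.1%; in the liver channel the medians were 39.7% and 19.9%, and in the reference channel 56.6% and 16.0%. Slide and group were not balanced, so the shares are not additive. Slide has more levels than group, and with few arrays either share lies above 0 without a true difference. The shares of slide and group are therefore not comparable in size, and they were not computed over all genes. For Ugt3a2 group took 60.3% of the variance of the ratio and slide 21.2%. For Sult5a1 the shares were 42.2% and 10.1%, and for Ugt3a1 49.3% and 17.6%.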

How the data were processed

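Liver RNA of 16 offspring was hybridised on 2-colour Agilent arrays against a universal mouse reference, 1 animal per array, on 5 slides scanned on 4 days. The scanner files hold intensity values per spot, per the file headers, and these were the starting point; the authors' deposited table of log2 values, whose normalisation is not given in the sources used here, served as an alternative. It was matched to red over green.

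In limma 3.58.1 (R 4.3.3), mean signals were background-corrected by normexp (offset 50) and normalised by loess within arrays, with control spots at weight 0; spots flagged as outliers were dropped and spots of a probe averaged. The liver channel alone was quantile normalised after normexp. A normexp value near background shrinks a ratio towards 0. Group means were fitted in 1 model, and p-values were adjusted by Benjamini-Hochberg over all tested genes at 0.05. The fit was tested on simulated data.

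Members and gene lists were chosen with earlier results of these data known. Genes were named by rule: those past the threshold, 4 per family and comparison with the smallest p, 4 with the highest and 4 with the lowest ratio, members whose probes disagree, undetected members, a panel of well-known enzymes, and up to 3 per pathway list. Of these, the ones on which a result turns are described. The within-slide pattern and the promoter and probe sequences shown were chosen after values were seen. Gene names are those of the array; 42 of 43 members were matched to RefSeq by accession. Alternatives covered background correction, centring, Agilent's processed signals, each channel alone, filters, slide and scan day as blocks, array weights and leaving out arrays.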

Additional observations from a re-analysis of the deposited data

Results flagged for a closer look

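Each of the 41 members was examined in the 3 groups of 4 or 5 arrays. In 7 of these sets the highest or lowest array of a member lay far from the rest by Dixon's criterion; chance alone flags about 1 in 20. Ugt2b34 had its highest ratio, 4.87, on female UV-Titan 16 and 4.55 on male UV-Titan 17 (next 4.05). Both arrays are on slide 5. Sult4a1 had -0.24 on male UV-Titan 17 (next -0.48) and -0.26 on male control 31 (next -0.55). Sult2b1 had -0.22 on male UV-Titan 5 (next -0.34), the array with muscle transcripts. Its liver signal was above background on 7 of 16 arrays, so this value lies near the floor. On male control 43 Gsta2 was lowest at -0.74 (next -0.55) and Gsta4 highest at -0.13 (next -0.38).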

How the results depend on the processing

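The number of members past the threshold was 0 in every comparison under all 31 alternatives run, of which 16 left out 1 array each. Over all tested genes the counts did change. In females, where the count was 0, it was 1 with slide as a block, 1 with scan day as a block, 6 with array weights, and 0 to 1 with arrays left out. In males it was 1 with Agilent's processed signals. Averaged over sexes it was 1 without background correction, 1 with slide as a block, 10 with scan day as a block, 6 with array weights, and 0 to 11 with arrays left out, 11 being without male control 43. For sex it went from 9 to 3 with the stricter filter and 0 in the reference channel alone. The averaged Ugt3a2 difference ran from 0.52 to 0.66 with 1 array left out and was 0.58 with slide as a block. Of 456 family medians under the alternatives, 447 moved by less than 1 SD. Median centring moved the median of all genes by 0.27 in females and 0.13 for sex, so small family medians have no settled sign. The cause of these shifts was not tested. Pairing by replicate number was not possible because the groups share none; slide served as a block and arrays were compared within slides. Signal near background in the reference limits the ratios of Sult1b1, Sult1d1, Sult3a1, Ugt2a1, Ugt2a3, Ugt2b1 and Ugt2b35 most.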
